A study of Mus musculus with 2 samples.

Results

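The 10 genes described here encode the cathepsins B, C, D, H, K, L, S, W and Z and the protease legumain (Ctsb, Ctsc, Ctsd, Ctsh, Ctsk, Ctsl, Ctss, Ctsw, Ctsz and Lgmn). They were chosen by name out of the 32285 genes counted. No measured value set the list, but earlier results of these data were known. Their UMIs (unique molecular identifiers, 1 per captured RNA molecule) were counted in barcodes with at least 500 UMIs and 300 genes. The cells were CD45+ leukocytes, enriched with magnetic beads after removal of dead cells, from MC38 tumors under the skin of C57BL/6J females that were 6 to 8 weeks old when injected. MC38 is a mouse colon carcinoma line. Tumors were taken at day 14. One group of mice ate a normal diet and the other a ketogenic diet from day 4 on, and each group gave 1 library of single cells made from 5 pooled mice. With 1 library per diet there was no test between diets. The intervals given cover counting error only (95%, exact Poisson for levels, exact binomial for ratios), and nothing here measures the spread between mice or between libraries.

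Cathepsins and legumain are proteases of the endosome and lysosome that are made as inactive proenzymes and cut to their active form in acid compartments. Most of the family are cysteine proteases. Ctsd is an aspartic protease, and legumain cuts after asparagine. In macrophages and dendritic cells they degrade ingested protein and trim the invariant chain (Cd74) from MHC class II, a step for which Ctss is best known, while Ctsl does this in the thymic epithelium. Ctsc, dipeptidyl peptidase I, activates the granule serine proteases of killer lymphocytes, neutrophils and mast cells. Ctsw is known as a cathepsin of NK and CD8 T cells, and Ctsk as the collagen-degrading protease of osteoclasts.

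Lysosomal genes are known targets of TFEB and related factors, which bind the CLEAR motif, an extended E-box, and PU.1 binds purine-rich sites in myeloid genes. Promoters were therefore searched on both strands for the E-box CACGTG, for CLEAR as GTCACGTG, for a PU.1 site as GAGGAAGT and for an interferon-response element as a pair of GAAA with 2 bases between them. The RefSeq table for GRCm38.p6 held promoters of 300 bases, 250 before and 50 after the start, for 7 of the 10 genes with 8 starts. CACGTG occurs within GTCACGTG, so every CLEAR match is also an E-box match. The E-box was in the promoters of Ctsd, Ctsl and Lgmn and in 7.15% of all 32851 promoters of this length. CLEAR was in Ctsd, which had 2 sites, and in Lgmn, against 2.25% of all promoters. The PU.1 motif was in Ctsc and Ctss, against 3.2%, and the interferon-response motif in Ctss, against 3.44%. The 5 promoters with a match are shown because they carry these letters in the genes that the levels below follow, with the matched bases in capitals and each written 5′ to 3′ on the strand of its gene.

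Ctsd, chr7:142387778-142388077, minus strand, with 2 CLEAR motifs:
Ctsd: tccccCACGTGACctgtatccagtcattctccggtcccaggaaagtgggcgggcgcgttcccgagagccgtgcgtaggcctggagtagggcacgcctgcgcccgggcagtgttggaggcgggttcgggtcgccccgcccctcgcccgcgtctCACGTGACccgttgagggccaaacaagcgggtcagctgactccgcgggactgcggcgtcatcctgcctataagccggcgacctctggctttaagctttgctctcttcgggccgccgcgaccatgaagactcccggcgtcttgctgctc
Lgmn, chr12:102439043-102439342, minus strand, with 1 CLEAR motif:
Lgmn: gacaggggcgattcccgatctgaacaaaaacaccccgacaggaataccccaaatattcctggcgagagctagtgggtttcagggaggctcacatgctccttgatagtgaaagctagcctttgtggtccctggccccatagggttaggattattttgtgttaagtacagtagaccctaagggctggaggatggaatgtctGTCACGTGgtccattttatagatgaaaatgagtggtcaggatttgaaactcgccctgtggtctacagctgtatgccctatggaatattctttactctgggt
Ctsl, chr13:64370471-64370770, minus strand, with an E-box that is not CLEAR:
Ctsl: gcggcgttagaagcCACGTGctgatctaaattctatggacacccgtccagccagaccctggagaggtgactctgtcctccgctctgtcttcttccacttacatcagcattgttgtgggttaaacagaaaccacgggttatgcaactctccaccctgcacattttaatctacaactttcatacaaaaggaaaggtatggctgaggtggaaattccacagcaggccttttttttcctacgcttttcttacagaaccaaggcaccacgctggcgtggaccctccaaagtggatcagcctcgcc
Ctsc, chr7:88277835-88278134, plus strand, with the PU.1 motif read on the other strand:
Ctsc: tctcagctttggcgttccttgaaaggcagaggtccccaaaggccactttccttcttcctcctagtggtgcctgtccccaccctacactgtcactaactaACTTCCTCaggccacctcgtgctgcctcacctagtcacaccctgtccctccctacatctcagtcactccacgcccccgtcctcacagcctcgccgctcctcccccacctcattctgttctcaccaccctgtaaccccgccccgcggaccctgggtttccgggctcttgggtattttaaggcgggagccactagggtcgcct
Ctss, chr3:95526536-95526835, plus strand, with the interferon-response motif followed by the PU.1 motif read on the other strand:
Ctss: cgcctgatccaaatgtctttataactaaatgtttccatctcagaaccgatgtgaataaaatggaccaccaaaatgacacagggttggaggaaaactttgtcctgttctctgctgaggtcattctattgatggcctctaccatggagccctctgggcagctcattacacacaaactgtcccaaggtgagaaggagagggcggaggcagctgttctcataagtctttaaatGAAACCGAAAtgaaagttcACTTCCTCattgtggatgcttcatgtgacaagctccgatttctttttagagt

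Lgmn has a second RefSeq start (chr12:102439679-102439978, minus strand) with none of these motifs. The Ensembl models of Ctsd, Ctsl and Lgmn begin further upstream than the starts shown. The matches of Ctsl and Lgmn and the later of the Ctsd sites lie within those models. The counts do not resolve start sites, so the matches describe letters in a window and no more. Ctss and Ctsk are neighbors on chromosome 3, where their Ensembl models span chr3:95526786-95556403 and chr3:95499256-95509362, both on the plus strand. The Ctsd model overlaps 6757 bases of the same-strand gene Gm49369, which is not in the count table, so reads from that overlap could not be told from Ctsd.

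The libraries held 37575996 UMIs (normal) and 42710007 UMIs (ketogenic). The barcode filter kept 5671 and 5944 barcodes, with a median of 4200 and 3922 UMIs, and 7 barcodes passed in both libraries. Leaving these out moved no ratio of the 10 genes between diets past its error. Cell classes were set by sums of marker genes, none of them among the 10, and are called gates or "-like" because no annotation by the authors was used. They placed 4278 and 4544 barcodes, while 1173 and 1178 barcodes with markers of more than 1 lineage were set aside as mixed. NK-like cells numbered 971 and 1681. Macrophage-like cells, split by their MHC class II genes, numbered 817 and 348 (MHC II-low) and 225 and 83 (MHC II-high). Barcodes with at most 100 UMIs, which hold free RNA, held 4.33% and 6.09% of all UMIs. The level of the 10 genes in this free RNA differed between libraries. Its share of each gate was estimated from Gzma, Gzmb, Nkg7 and Ccl5 in the myeloid gates and from Apoe, Cd14, C3ar1 and Cd68 in the others, and is too high where the cells of a gate make these RNAs. Levels after subtraction are given beside the diet calls.

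**Figure D1:**
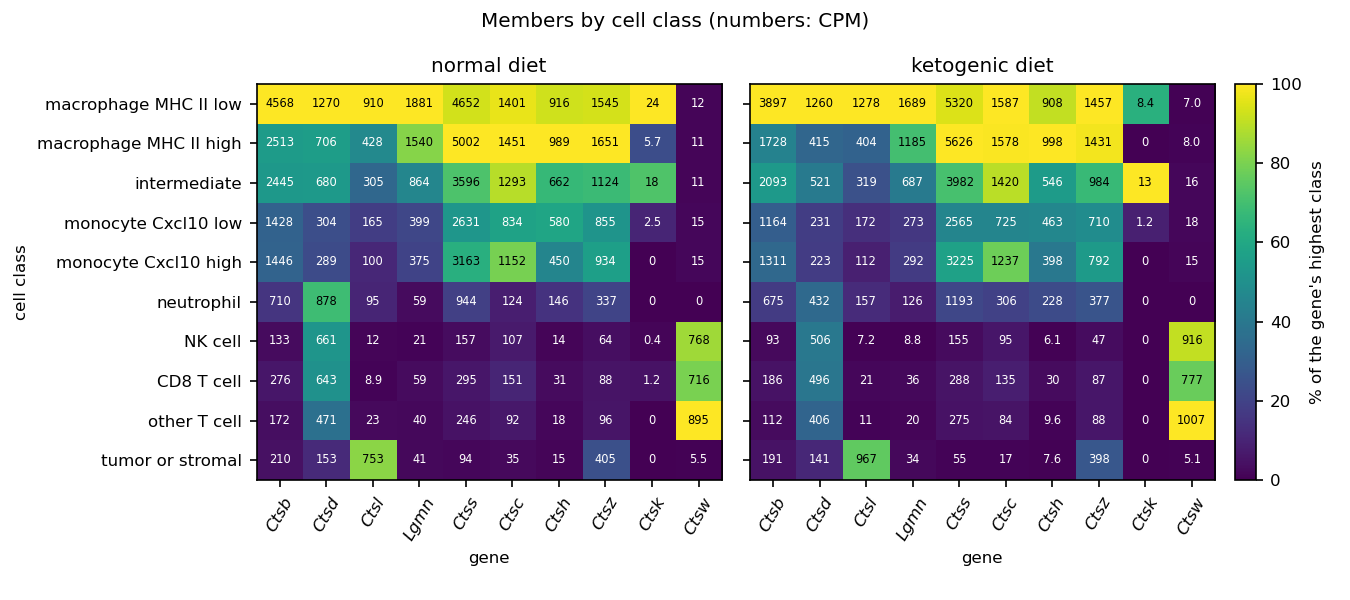
Level of each gene (columns) in the 10 gates with at least 50 cells in both libraries (rows), normal diet and ketogenic diet in separate panels; numbers are levels in CPM (UMIs of the gene scaled to a fixed total) and colors the percent of that gene's highest gate. The macrophage-like rows are brightest for most genes, Ctsw is bright only in the 3 lymphocyte rows, and Ctsl has a separate bright cell in the tumor or stromal row.

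Among gates of at least 50 cells, 9 of the 10 genes (normal) and 8 (ketogenic) had their highest level in a macrophage-like gate. The exceptions were Ctsw, highest in a T cell gate in both libraries, and Ctsk, highest in the intermediate gate of the ketogenic library (13.2 CPM). Levels are in CPM, the UMIs of the gene scaled to a fixed total of UMIs in the gate, and are compared within a gene, across gates. Ctsb and Lgmn, which both act in the degradation of ingested protein, were highest in MHC II-low cells. Ctsb was at 4568 CPM (normal, 4500 to 4638) and 3897 CPM (ketogenic, 3796 to 4001) in MHC II-low macrophage-like cells. It was at 2513 and 1728 CPM in MHC II-high cells, 2445 and 2093 CPM in the gate between monocytes and macrophages, 1428 and 1164 CPM in Cxcl10-low monocytes and 133 and 93.4 CPM in NK-like cells. The intervals of the MHC II-high and intermediate gates overlapped in the normal library, and in the ketogenic library the intermediate gate was the higher of the pair. Lgmn was at 1881 and 1689 CPM in MHC II-low cells, 1540 and 1185 CPM in MHC II-high cells, 864 and 687 CPM in the intermediate gate and 399 and 273 CPM in Cxcl10-low monocytes. In both libraries the Lgmn levels of these 4 gates were in that order.

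Ctss, the cathepsin that processes the invariant chain, was spread more evenly over the myeloid gates. It was at 4652 and 5320 CPM in MHC II-low and 5002 and 5626 CPM in MHC II-high macrophage-like cells, and at 2631 and 2565 CPM in Cxcl10-low monocytes. In cDC2-like cells it was at 2302 CPM in the normal library (66 cells), and the ketogenic library had 36 cells, too few for a comparison between diets. Neutrophil-like cells held 944 and 1193 CPM of Ctss. Lymphocyte gates were far below, with 157 and 155 CPM in NK-like cells. Ctsh, an aminopeptidase, had a profile like that of Ctss: its levels over the 11 gates of at least 50 cells in each library correlated with those of Ctss at r = 0.983 (normal) and 0.972 (ketogenic), a description over gates that share a library.

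Ctsz, a carboxypeptidase, and Ctsc, the activator of granule proteases, were also highest in the macrophage-like gates. Ctsz was at 1545 and 1457 CPM in MHC II-low cells, and at 855 and 710 CPM in Cxcl10-low monocytes. Ctsc was at 1401 and 1587 CPM in MHC II-low cells, and at 107 and 95.4 CPM in NK-like cells. NK-like cells, whose granzymes Ctsc is known to activate, thus held a lower Ctsc level than any macrophage or monocyte gate in both libraries.

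Ctsd, the aspartic protease, had the flattest profile of the genes with many UMIs. It was at 1270 and 1260 CPM in MHC II-low macrophage-like cells, at 878 and 432 CPM in neutrophil-like cells, at 661 and 506 CPM in NK-like cells and at 643 and 496 CPM in CD8 T-like cells. Cxcl10-low monocytes, with 304 and 231 CPM, were below the NK-like and CD8 gates in both libraries. Ctsb, Ctsc, Ctsh, Ctsl, Ctss, Ctsz and Lgmn were all higher in Cxcl10-low monocytes than in those lymphocyte gates. The correlation of Ctsd with each of the 8 other genes compared was at most 0.418 over the 11 gates. NK-like cells held 16.0% and 25.5% of the Ctsd UMIs of all barcodes that passed the filter. Subtracting the free RNA profile left 664 and 513 CPM of Ctsd in NK-like cells.

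Ctsw was at 768 CPM (normal, 745 to 792) and 916 CPM (ketogenic, 896 to 937) in NK-like cells. CD8 T-like cells held 716 and 777 CPM, and the gate of other T cells 895 and 1007 CPM. The order of the 3 gates was the same in both libraries. Neutrophil-like cells had no Ctsw UMI among 136699 and 127409 UMIs, which allows a level of up to 27.0 and 29.0 CPM. Macrophage and monocyte gates held 6.98 to 18.1 CPM of Ctsw, and 0 in all 5 gates once free RNA was subtracted. A small gate of Il17a-type γδ T-like cells held 691 CPM in the ketogenic library (78 cells). The normal library had 20 such cells with 109 Ctsw UMIs, a count that cannot be set beside that level.

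Ctsl had 3 separate places of high level. MHC II-low macrophage-like cells were at 910 and 1278 CPM. The tumor or stromal gate, barcodes with markers of non-immune cells that came through the CD45 enrichment, was at 753 and 967 CPM, and its 66 and 90 barcodes held 15.4% and 32.6% of the Ctsl UMIs that passed the filter. These barcodes were deep, with a median of 32798 and 31702 UMIs. With the free RNA profile subtracted, Ctsl in the tumor or stromal gate was at 769 and 1008 CPM. The highest level of all gates was in plasmacytoid dendritic-like cells, a gate too small to compare by diet, where 19 normal cells held 169 Ctsl UMIs of 66876 (2527 CPM, 2160 to 2938) and 26 ketogenic cells held 232 of 91129 (2546 CPM, 2229 to 2895). Ctsl was found in 18 of 19 and 25 of 26 of these cells, and after thinning each cell to 1000 UMIs 84.2% and 84.6% of them kept a Ctsl UMI. Those cells also held 118 and 126 UMIs of Ctsb and 77 and 115 UMIs of Ctsh.

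Other small gates added these counts. CCR7+ dendritic-like cells, 39 in each library, held 145 and 154 UMIs of Ctss, 128 and 93 of Ctsh and 59 and 14 of Ctsb. Mast cell or basophil-like cells, 22 and 44, held 54 and 65 UMIs of Ctsd and 7 and 17 of Ctsc, among 38135 and 82094 UMIs. Regulatory T-like cells, 34 and 43, held 72 and 211 UMIs of Ctsw. The counts of these small gates are not scaled to the UMIs of each gate and are not compared between diets.

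The gates between monocytes and macrophages show how far apart each gene was within the lineage. The ratio of MHC II-low macrophage-like cells to Cxcl10-low monocytes was at least 1.5 for 9 of 10 genes with at least 50 UMIs in the 2 gates together in the normal library, where 18.4% of all measured genes were that much higher. It was at least 1.5 for 8 of 8 genes in the ketogenic library, against 17.6% of all measured genes. Ctsl had a ratio of 5.51 and 7.45, Lgmn 4.71 and 6.20, Ctsd 4.18 and 5.46, and Ctsb 3.20 and 3.35. The other 4 were closer together: Ctss was 1.77 and 2.07, Ctsz 1.81 and 2.05, Ctsc 1.68 and 2.19, and Ctsh 1.58 and 1.96. Ctsk, with few UMIs, was the remaining gene of the 9 in the normal library. The genes with an E-box or CLEAR match in their promoter, Ctsl, Lgmn and Ctsd, had the 3 largest of these 8 ratios in both libraries. The motifs were chosen with these levels known, and a link between motif and level was not tested. The Ctsz and Ctsk promoters and the second Lgmn start held no match, and promoters of Ctsb, Ctsh and Ctsw were not analysed here. The gates were cut from a marker sum, so they are ranges: 15.2% and 15.3% of the cells in the intermediate and macrophage-like gates lay within 20% of the cut between them.

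**Figure D2:**
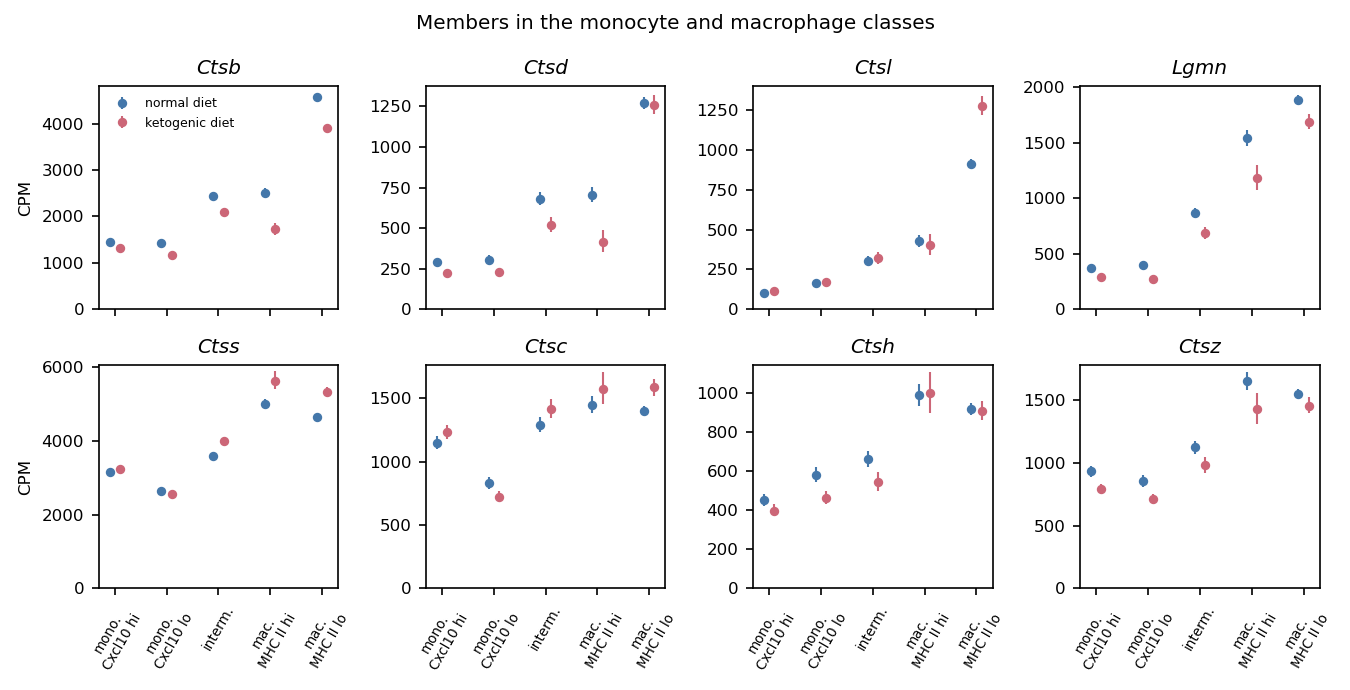
Level in CPM with its 95% counting interval (y axes, from 0) of 8 genes over 5 gates from Cxcl10-high monocytes to MHC II-low macrophage-like cells (x axes), 1 panel per gene, both diets. Ctsb, Ctsd and Ctsl peak in MHC II-low cells, while Ctss, Ctsc, Ctsh and Ctsz have similar levels in MHC II-low and MHC II-high cells.

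MHC II-low and MHC II-high macrophage-like cells differed in some of the 10 genes. Of 10 measured genes, 4 were at least 1.5-fold higher in MHC II-low cells in the normal library, against 8.58% of all measured genes, and none was that much lower, against 3.67%. The 4 were Ctsb (1.82), Ctsd (1.80), Ctsl (2.13) and Ctsk (4.22). In the ketogenic library 3 of 8 were higher, against 12.1% of all genes, and none lower, against 7.25%: Ctsb had a ratio of 2.26, Ctsd 3.04 and Ctsl 3.16. Ctss and Ctsh were slightly higher in MHC II-high cells, well within 1.5-fold: the ratio of MHC II-low to MHC II-high was 0.930 and 0.946 for Ctss, and 0.926 and 0.910 for Ctsh. The interval included 1 for Ctsh in the ketogenic library. Lgmn was in between, at 1.22 and 1.43.

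Monocytes were split by Cxcl10, a chemokine induced by interferon. In the normal library 0 of 9 measured genes were at least 1.5-fold higher in Cxcl10-high monocytes, against 9.53% of all genes, and 1 was lower, against 14.9%. Ctsl was that gene, with a ratio of 0.608, and it was 0.651 in the ketogenic library. There, 1 of 9 was higher, against 9.19%, and 1 lower, against 14.2%. The higher gene was Ctsc, at 1152 CPM in Cxcl10-high and 834 CPM in Cxcl10-low monocytes in the normal library (ratio 1.38) and at 1237 and 725 CPM in the ketogenic one (ratio 1.71). Ctss, whose promoter holds the interferon-response letters shown above, was 1.2 and 1.26 times as high, and Ctsh was lower in both libraries, at 0.777 and 0.860.

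Between killer lymphocytes the levels of Ctsw and Ctsd were close: NK-like over CD8 T-like cells had a ratio of 1.07 and 1.18 for Ctsw, and 1.03 and 1.02 for Ctsd. Ctsb, Ctsc, Ctsh, Ctss, Ctsz and Lgmn were lower in NK-like cells in both libraries, with a ratio of 0.482 and 0.503 for Ctsb, 0.533 and 0.539 for Ctss and 0.349 and 0.243 for Lgmn. Ctsl had a ratio of 1.36 with the normal diet, whose interval of 0.766 to 2.55 includes 1, and of 0.344 with the ketogenic diet. Lgmn in NK-like cells was at 0 in both libraries once free RNA was subtracted, and its level there, 20.5 and 8.84 CPM, is not read as expression. After that subtraction Ctsl was at 0 in both gates of both libraries, and Ctsh in NK-like cells at 0.242 and 0 CPM. The ratios of these genes are not read as expression either.

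The diets were compared inside the 10 gates with at least 50 cells in both libraries. A gene was measured in a gate if it had at least 50 UMIs over both libraries, which held for 82 of 100 pairs of gene and gate, and was called if its ratio of ketogenic to normal was at least 1.5-fold. Of the 82 pairs, 13 (15.9%) were lower and 2 (2.44%) higher, against 9.85% and 3.13% of all measured pairs of a gene and a gate, and the other 67 lay within 1.5-fold. With a minimum of 200 UMIs the counts were 3 lower and 0 higher, and with free RNA subtracted 8 were lower. Of those 8, 4 had a ketogenic level of exactly 0, and of the 4 with a ratio 3 were among the 13. In the 10 gates mitochondrial genes had a median log2 ratio of −0.81 to −0.03 and ribosomal protein genes of 0.05 to 0.82. With both left out of the totals the counts were again 13 lower and 2 higher. Any other part of these genes in the ratios was not tested.

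**Figure D3:**
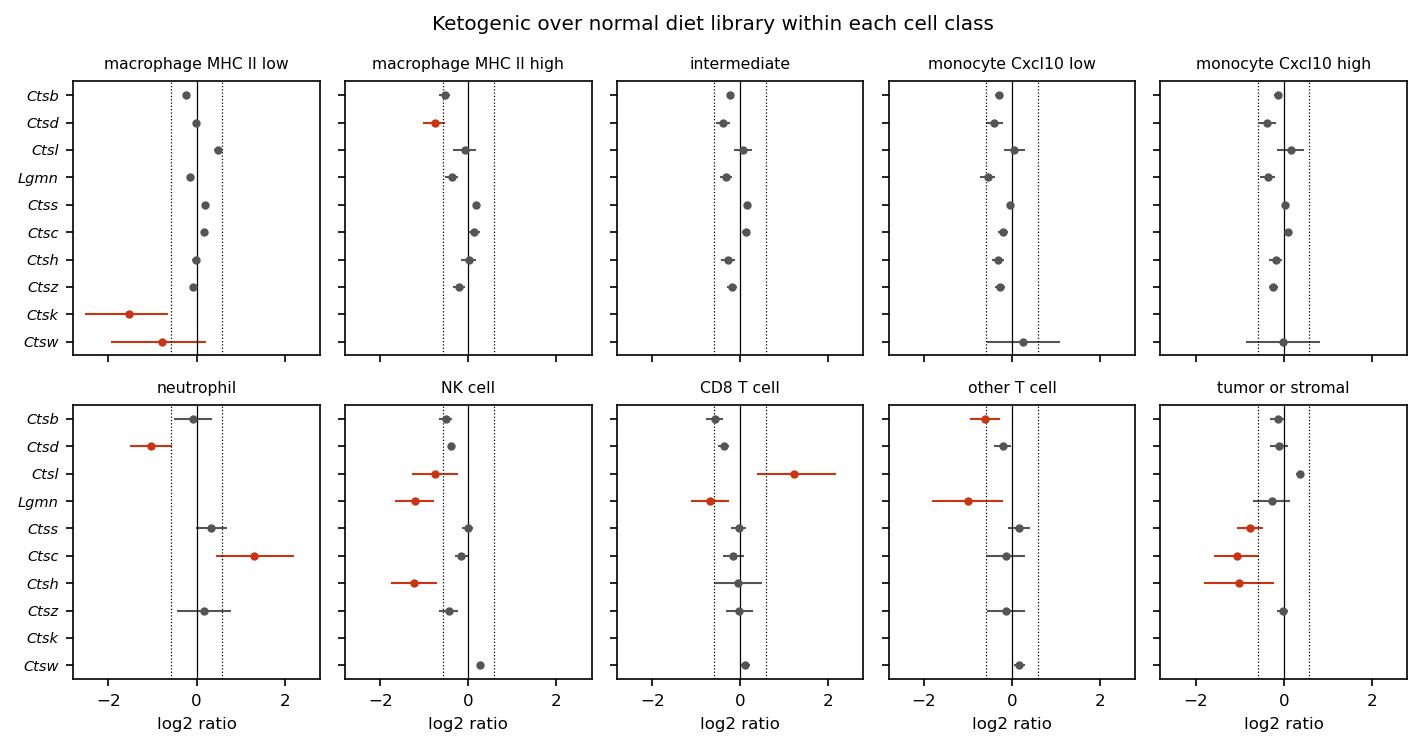
Log2 ratio of ketogenic to normal level (x axes, log scale, with 95% counting intervals) of each measured gene in each of the 10 gates; dotted lines mark 1.5-fold either way and red points lie beyond it. Most points of the macrophage and monocyte gates lie between the dotted lines, and Ctsk in MHC II-low cells and Ctsd in MHC II-high and neutrophil-like cells lie beyond the lower line.

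In MHC II-low macrophage-like cells 2 of 10 genes were called lower, where 13.5% of all measured genes were, and 0 higher, where 1.91% were. The called genes were the 2 with the fewest UMIs. Ctsk had 90 UMIs in 52 normal-diet cells (24.2 CPM) and 12 UMIs in 9 ketogenic-diet cells (8.38 CPM), a ratio of 0.346 (0.172 to 0.635). Ctsw, with 45 and 10 UMIs, had a ratio of 0.577 (0.259 to 1.16), an interval that includes 1, and its ratio was above 1 when mixed barcodes were kept. With free RNA subtracted Ctsw was at 0 in this gate in both libraries, and Ctsk at 25.0 and 9.24 CPM. All genes measured in this gate had a median log2 ratio of −0.14, against which the 10 genes had a median of −0.05. Ctsl was the gene with the largest upward ratio, at 1.40 (1.33 to 1.49), which is 0.63 on the log2 scale above the median of all genes, and Ctss was at 1.14. Ctsb was at 0.853 (0.828 to 0.879), which is only −0.09 from that median.

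In MHC II-high cells 1 of 8 genes was called lower, against 13.7% of all genes, and 0 higher, against 5.14%. That gene was Ctsd, with 861 UMIs (706 CPM) and 155 UMIs (415 CPM), a ratio of 0.587 (0.492 to 0.697). A log2 ratio of −0.77 for Ctsd became −0.43 when each cell had the same weight and −0.34 when cells were thinned to 1000 UMIs. Ctsd was at 739 and 419 CPM there with free RNA subtracted. Ctsb was next, at 0.688, and at 0.646 after the subtraction, which is past the fold. The median of the 8 genes was −0.14 and that of all genes −0.06 on the log2 scale.

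No gene was called in the 3 gates of intermediates and monocytes. The background there was 12.9%, 10.7% and 11.2% lower and 2.69%, 2.82% and 2.9% higher, for intermediate, Cxcl10-low and Cxcl10-high gates. In the intermediate gate the median log2 ratio of all genes was −0.13 and that of the 8 measured genes −0.21. In Cxcl10-low monocytes 7 of 9 genes had a ratio below 1, with a median of −0.27 against −0.09 for all genes, and Lgmn was lowest, at 399 and 273 CPM. Cxcl10-high monocytes had a median of −0.14 against −0.09. Ctss was level in both monocyte gates, at 2631 and 2565 CPM and at 3163 and 3225 CPM. Free RNA was estimated at 33.9% and 15.6% of the Cxcl10-high gate, the widest gap of the monocyte gates. With it subtracted, Ctsd there went from 289 and 223 CPM to 129 and 195 CPM, past the fold in the other direction, Ctsl to 0 and 100.2 CPM and Lgmn to 262 and 310.2 CPM, so no direction is read for these 3 genes in Cxcl10-high monocytes.

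The neutrophil-like gate, with 108 and 82 cells of a median of 946.5 and 997.5 UMIs, had 1 of 5 genes lower, against 15.4% of all genes, and 1 higher, against 17.8%. Ctsd had 120 and 55 UMIs (878 and 432 CPM), a ratio of 0.492 (0.351 to 0.682). Ctsc had 17 and 39 UMIs (124 and 306 CPM), a ratio of 2.46 (1.36 to 4.64). On the log2 scale the Ctsc ratio was 1.30, and 0.17 once cells were thinned to 1000 UMIs, which left 46 and 41 cells. Free RNA was estimated at 8.50% and 20.7% of this gate, higher in the ketogenic library, unlike in the macrophage and monocyte gates. With it subtracted Ctsd was at 899 and 438 CPM and Ctsc at 74.7 and 275 CPM. Markers of other cells differed in that gate too. Lyz2 was at 3138 and 6593 CPM, the monocyte marker list summed to 5311 and 8014 CPM with 0 of its 10 markers at 0, the macrophage list to 315 and 408 CPM with 2 and 5 of 10 markers at 0, and ribosomal protein genes had a median log2 ratio of 0.82. With mitochondrial and ribosomal genes left out of the totals, the log2 ratio was 1.351 for Ctsc and −0.9725 for Ctsd. Any other part of these markers and genes in the result was not tested.

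In the lymphocyte gates the calls were on genes that, among gates of at least 50 cells, were highest in a macrophage-like gate. Of these, Ctsl was higher still in the smaller plasmacytoid dendritic-like gate. NK-like cells had 3 of 9 genes lower, against 6.09% of all genes, and 0 higher, against 1.42%. These were Ctsh (14.4 and 6.13 CPM), Ctsl (12.1 and 7.19 CPM) and Lgmn (20.5 and 8.84 CPM). The same genes were lower in free RNA of the ketogenic library, with 358 and 179 CPM for Ctsh, 335 and 170 CPM for Ctsl and 579 and 185 CPM for Lgmn, and with the free RNA profile subtracted they were at 0.242 and 0, 0 and 0, and 0 and 0 CPM in NK-like cells. The macrophage marker list in these cells summed to 118 and 77.4 CPM, with 0 of 10 markers at 0. Ctsb in NK-like cells, at 133 and 93.4 CPM, was at 78.1 and 72.5 CPM after the subtraction. Ctsw was the only 1 of the 9 with a ratio above 1, at 1.19.

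CD8 T-like cells had 1 of 9 genes lower, against 7.81%, and 1 higher, against 3.35%. Lgmn was lower (58.7 and 36.4 CPM, ratio 0.619), but not by that fold with free RNA subtracted (18.4 and 13.9 CPM, ratio 0.755). Ctsl was higher, with 15 UMIs in 14 cells and 50 UMIs in 26 cells (8.90 and 20.9 CPM, ratio 2.35, 1.30 to 4.50). That ratio depended on the gate: on the log2 scale it was 1.23, but 0.05 with a stricter limit on other lineages and −0.43 with mixed barcodes kept, and Ctsl was at 0 in both libraries after subtraction of free RNA. Other T cells had 2 of 7 genes lower, against 8.22%, and 0 higher, against 3.7%: Ctsb (172 and 112 CPM, ratio 0.652) and Lgmn (40.1 and 19.9 CPM, ratio 0.497). After subtraction neither was past the fold, with Ctsb at 108 and 87.3 CPM and Lgmn at 13.5 and 9.41 CPM there. The macrophage list summed to 141 and 87.8 CPM in CD8 T-like cells, with 0 and 1 of 10 markers at 0, and to 130 and 70.1 CPM in other T cells, also with 0 and 1 at 0. Its part in these ratios was not tested.

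The tumor or stromal gate had 3 of 8 genes lower, against 7.5%, and 0 higher, against 3.9%. They were Ctsc (35.5 and 16.9 CPM), Ctsh (15.2 and 7.56 CPM) and Ctss (93.5 and 55.3 CPM), all macrophage-rich genes at low levels. With free RNA subtracted these were at 9.29 and 0, 0.683 and 0, and 16.7 and 0 CPM. The macrophage list summed to 89.4 and 25.1 CPM, with 0 and 1 of 10 markers at 0, and its part in these ratios was not tested. Ctsl and Ctsz, the 2 genes with high levels in this gate, were not called, at 753 and 967 CPM and at 405 and 398 CPM.

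**Figure D4:**
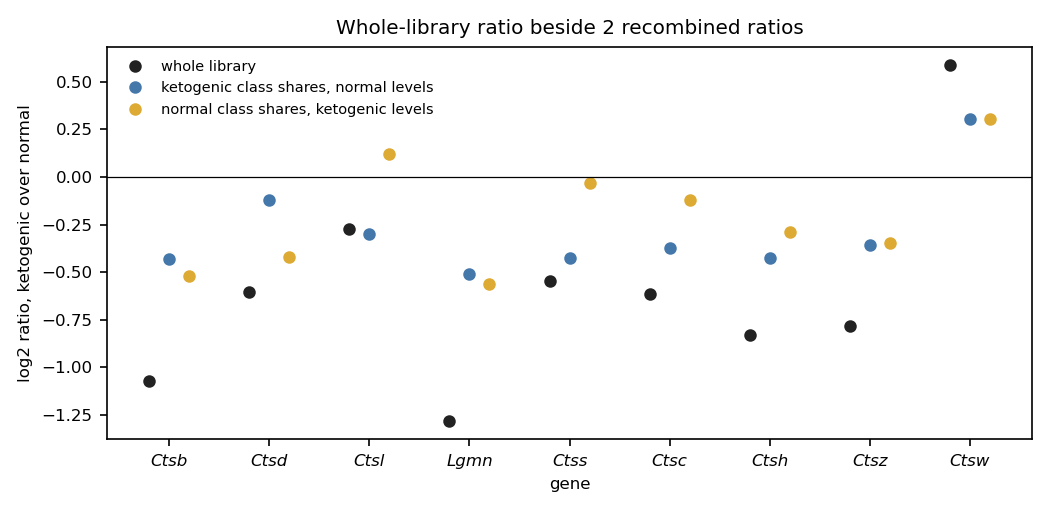
Log2 ratio of ketogenic to normal level for 9 genes (y axis, log scale; genes on the x axis, without Ctsk), taken over all barcodes that passed the filter, with only the shares of the classes changed, and with only the levels within classes changed. For the whole library (black) Ctsw lies above 0 and the other 8 genes below it, and with only the levels changed (yellow) Ctss lies near 0 and Ctsl above it.

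Over all barcodes that passed the filter, Ctsb and Lgmn differed more between diets than within any macrophage or monocyte gate. Ctsb was at 1503 and 714 CPM, a ratio of 0.475, and Lgmn at 580 and 238 CPM, a ratio of 0.411. Ctsw was at 310 and 466 CPM, a ratio of 1.5. The macrophage-like gates held 13.9% of these UMIs with the normal and 4.54% with the ketogenic diet, and NK-like cells 15.6% and 21.3%. With the levels within each class kept at their normal values and only the class shares changed, the ratio was 0.741 for Ctsb, 0.702 for Lgmn, 0.745 for Ctss and 1.24 for Ctsw. With the shares kept and only levels changed it was 0.698 for Ctsb, 0.677 for Lgmn, 0.980 for Ctss, 1.09 for Ctsl and 1.23 for Ctsw. These levels include the mixed barcodes, which held 39.2% and 41.6% of the UMIs and whose summed macrophage markers were 3491 and 1461 CPM, so a change in what is mixed counts as a change in level. Fewer macrophages and less of these RNAs per macrophage cannot be told apart by the library totals.

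Ctsk, the osteoclast protease, was a gene of few barcodes. It had 976 UMIs in 153 barcodes of the normal library, and 80 UMIs in 39 barcodes of the ketogenic one. Of the 976, 672 (68.9%) were in 1 barcode of 30351 UMIs that no gate took. That barcode also held 438 UMIs of Acp5, 242 of Mmp9, 194 of Ckb, 29 of Ocstamp and 25 of Atp6v0d2, genes known from osteoclasts, and 0 UMIs of C1qa and of Lyz2. It held 33 UMIs of Ctsd, 30 of Ctsb and 0 of Ctsc, and its Ctsb level of 988 CPM was below the 1504 CPM of the other barcodes. Without the top barcode of each library Ctsk had 304 and 68 UMIs, a ratio of 0.200 (0.152 to 0.261). The top 2 ketogenic barcodes, both mixed, had 12 and 10 Ctsk UMIs with 14 and 11 of Acp5.

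**Figure D5:**
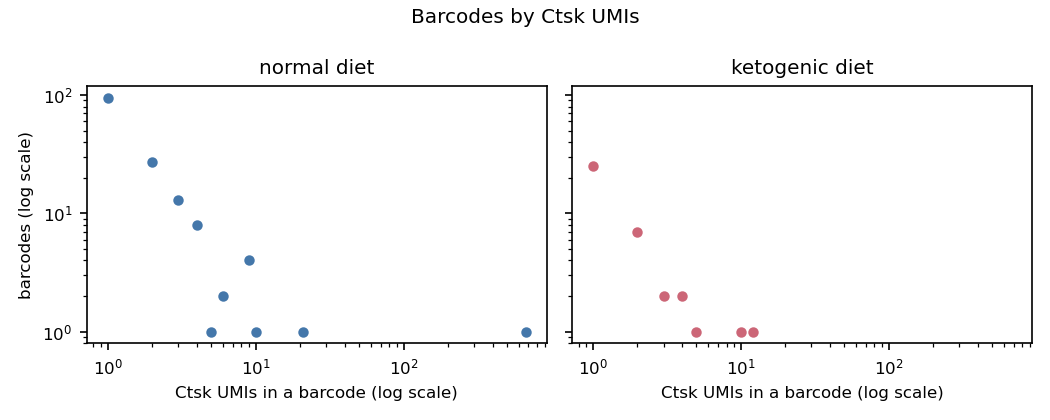
Number of barcodes (y axis, log scale) by their number of Ctsk UMIs (x axis, log scale) in the normal and the ketogenic library. Most barcodes with Ctsk hold 1 or 2 UMIs, and a single normal barcode stands at 672.

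Related genes were taken from 7 lists, with 105 genes found in the table, and compared by the same fold. Genes of the V-ATPase, the pump that acidifies the lysosome, had no call in the 5 macrophage and monocyte gates, nor in NK-like and CD8 T-like cells, with 14 to 15 genes measured in each. Of all genes in those gates, 6.09% to 13.7% were lower and 1.42% to 5.14% higher. In the tumor or stromal gate 1 of 15 was lower, against 7.5% of all genes. Of the lysosomal hydrolases 0 of 25 were called in MHC II-low macrophage-like cells, against 13.5% of all genes lower and 1.91% higher. In MHC II-high cells 2 of 17 were lower, against 13.7% of all genes. In CD8 T-like cells 5 of 19 were lower, against 7.81%, in other T cells 3 of 11, against 8.22%, and in NK-like cells 3 of 25, against 6.09%. The summed macrophage markers of these lymphocyte gates were also lower in the ketogenic library, as given above. The part of free RNA and of macrophage RNA in these hydrolase calls was not tested. In the tumor or stromal gate 2 of 20 hydrolases were higher, against 3.9%. In MHC II-low cells the other calls were Cst7 and Tfeb, both lower, where 13.5% of all genes were. Cst7 encodes the cathepsin inhibitor cystatin F. It had 50 and 10 UMIs (13.4 and 6.98 CPM), and its ratio of 0.519 had an interval of 0.235 to 1.04, which includes 1. Tfeb had 96 and 23 UMIs (25.8 and 16.1 CPM), a ratio of 0.622 (0.376 to 0.988). Tfeb was the other way in the intermediate gate, on 23 and 28 UMIs (14.4 and 28.5 CPM, ratio 1.98, 1.10 to 3.60).

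The list that differed most often in the myeloid gates was MHC class II with its invariant chain, the substrate of Ctss. In each monocyte gate 5 of 7 measured genes were lower in the ketogenic library, where 10.7% (Cxcl10-low) and 11.2% (Cxcl10-high) of all genes were. The list had a median log2 ratio of −0.92 and −1.05, against −0.09 for all genes in each gate. In the intermediate gate 3 of 7 were lower, against 12.9%. The list was also lower in gates where it is at a low level. In NK-like cells 4 of 7 were lower, against 6.09% of all genes, and in CD8 T-like cells 3 of 5, against 7.81%. In other T cells 2 of 4 were lower, against 8.22%, and in the tumor or stromal gate 3 of 6, against 7.5%. The medians of these 4 gates were −0.61, −0.96, −0.71 and −0.42. In neutrophil-like cells the only measured gene, Cd74, was higher (ratio 1.79), where 17.8% of all genes were. The part of free RNA in this list was not tested. H2-Ab1 was at 1663 and 729 CPM in Cxcl10-low and 1545 and 510 CPM in Cxcl10-high monocytes, and Ciita, the transactivator of these genes, at 56.5 and 18.7 CPM and at 46.4 and 15 CPM. Ctss did not go with them, with ratios near 1 in both gates. In MHC II-low macrophage-like cells 0 of 6 of the list were called, against 13.5% of all genes lower and 1.91% higher. In MHC II-high cells 2 of 8 were lower, against 13.7%. In both macrophage gates, however, the gate itself was set by H2-Aa, H2-Ab1 and H2-Eb1 of this list. The same genes also limited other gates. Lymphocyte and neutrophil barcodes with at least 1500 CPM of them were set aside as mixed. Barcodes with cDC2 markers and a high level of them were placed as cDC2-like before the monocyte gates. The part of these limits in the ratios of the list was not tested.

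Granule serine proteases, which Ctsc activates, went apart from Ctsc in the T cell gates. In CD8 T-like cells 4 of 8 were higher in the ketogenic library, against 3.35% of all genes, among them Gzmc (2370 and 5179 CPM, ratio 2.19), Gzmd (387 and 879 CPM, 2.27) and Gzma (383 and 820 CPM, 2.14), while Ctsc was at 151 and 135 CPM. In other T cells 1 of 7 was higher, against 3.7%, and 4 were lower, against 8.22%, among them Gzmg (663 and 68.5 CPM, 0.103) and Gzmf (1486 and 378 CPM, 0.254), with Ctsc at 92.3 and 83.7 CPM. NK-like cells had 0 of 8 called, against 6.09% of all genes lower and 1.42% higher. In the tumor or stromal gate the inhibitor gene Ctla2a, whose product resembles the cathepsin propeptide, was at 8.76 and 47.2 CPM (5.39), beside Ctsl at 753 and 967 CPM.

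The genes with the most similar profile over the 11 gates were found among 10455 genes, by the mean of the correlations in the 2 libraries. For Ctsb these included Lrp1 and Apobec1. They were, for Lgmn, Tnfrsf11a, Aif1 and Rab7b, and, for Ctsz, Cyfip1, Grn and Atp6ap2. Ctss had Vamp8, Cd68 and Ms4a6c, Ctsh had Lmo2, Ly86 and Fcgr2b, and Ctsl had Blvrb, Mcfd2 and Eif4ebp1. Ctsc had Ctss itself as the most similar gene (r = 0.945 and 0.990), followed by Ppp1r9b and Ms4a6d. Ctsw had Skap1, Gimap6 and Gimap4, genes of lymphocytes. Ctsd had Lasp1, Ski and Cd84. The gates of a library share its depth and free RNA, so these are descriptions.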

How the data were processed

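Single-cell RNA of CD45+ cells from MC38 tumors was measured in 2 libraries, 1 per diet, each of 5 pooled mice per the series design. The authors deposited matrices of whole UMI counts for all barcodes, empty ones included, made with Cell Ranger (6.0.0 per the submitters' processing notes, 4 per the file headers), with GRCm38. Analysis used pandas 2.3.3, scipy 1.17.1, numpy 2.4.6 and matplotlib 3.10.9 in Python 3.11.15, and the ratio code was tested on simulated data. The barcode filter was 500 UMIs and 300 genes, and barcodes above 10% mitochondrial UMIs were set aside from the gates. A gate needed at least 3 UMIs from at least 2 markers and a minimum CPM. Barcodes with markers of 2 lineages were treated as doublets and left out as mixed; no doublet caller was run. Besides the marker lists, Lyz2, MHC class II genes and Cxcl10 set gates.

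UMIs were summed per gate and library. A ratio of 1.5-fold from at least 50 pooled UMIs in gates of at least 50 cells was called; there is no test. All 10 genes are described in each such gate. List genes past that fold are named by size, at most 4 a gate, as are the 3 genes most like each of the 10 by mean correlation over gates; a few genes that this rule names are not reported here. The genes and lists were chosen with earlier results of these data known. There were 2 gate versions: a first one left myeloid RNA in the lymphocyte gates, and the thresholds were tightened, and the MHC class II and Cxcl10 splits and the motifs chosen, after levels of the 10 genes had been seen. The free RNA profile came from barcodes with at most 100 UMIs. Promoter sequences are from RefSeq GRCm38.p6 and gene positions from the GENCODE annotation of GRCm38. Alternatives are given in the closing section.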

Additional observations from a re-analysis of the deposited data

Results flagged for a closer look

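Ctsc moved in opposite directions between diets in 2 gates: its ketogenic over normal ratio was 2.461 in neutrophil-like cells and 0.477 in the tumor or stromal gate. Ctsl did so between 2 lymphocyte gates, with a ratio of 2.349 in CD8 T-like and 0.596 in NK-like cells. With free RNA subtracted Ctsl was at 0 CPM in both of these gates and both libraries, and Ctsc in the tumor or stromal gate at 9.29 and 0 CPM. The log2 ratio of Ctsl in CD8 T-like cells was −0.43 with mixed barcodes kept and 0.05 with a stricter limit on other lineages. Each gate had 1 library per diet, so neither difference was tested. Ctsk was at 2200.625 CPM in the barcodes that no gate took in the normal library, against 24.206 CPM in the highest of the compared gates. Of the 976 Ctsk UMIs of that library, 672 were in 1 of these barcodes, so the value is not a level of the group.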

How the results depend on the processing

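No paired analysis was possible because each diet had 1 library, and leaving out a replicate was not possible for the same reason. All 15 called pairs kept their call with at least 1000 UMIs per barcode, a mitochondrial limit of 20%, ratios centred on the median gene, totals without mitochondrial and ribosomal genes, or without barcodes in both libraries, the last added after seeing the data. The 13 pairs of gene and gate called lower became 8 with free RNA subtracted (4 of them with a ketogenic level of exactly 0, and 3 of the other 4 among the 13), 6 with 20 CPM added, 4 with cells thinned to 1000 UMIs, 7 at a fold of 2, 27 at a smaller fold and 3 with at least 200 UMIs. The 2 called higher became 5 with mixed barcodes kept, 0 with a stricter limit on other lineages (Ctsl in CD8 T-like cells had a log2 ratio of 0.05, and Ctsc in neutrophil-like cells 1.4974 on fewer than 50 UMIs), 1 with 20 CPM added, 0 with thinning, 1 without the cell with most UMIs of the gene, 5 with the first gates (added after seeing the data), 5 at the smaller fold, 0 with at least 200 UMIs and 5 with at least 10 UMIs. Of the 15 pairs, 4 of the 7 with a value after subtraction of free RNA stayed at least 1.5-fold in the same direction. So did 9 of 13 with thinning and 11 of 15 with the first gates. These counts set no minimum of UMIs, so with thinning they exceed the calls given above. The log2 ratio turned for Ctsw in MHC II-low macrophage-like cells (0.0923 with mixed barcodes kept, 0.0325 with thinning), for Ctsl in CD8 T-like cells (−0.4337 with mixed barcodes kept) and for Ctss in the tumor or stromal gate (0.0145 with the first gates). The causes were not tested. Genes of the related lists called higher, 19, became 33 with mixed barcodes kept, 31 with free RNA subtracted, 9 with 20 CPM added and 34 with each cell given the same weight. Those called lower, 73, became 34 with 20 CPM added and 32 with thinning. By Spearman correlation 8 of the 27 most similar genes were the same. Between 7 and 9 of the 10 genes were highest in a macrophage-like gate under each alternative run. Genes with few UMIs, such as Ctsk, and gates of under 50 cells are limited by depth.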
